A study of Mus musculus with 8 samples.

Results

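The data describe the transcripts of 10 genes of the IGF1, AKT, mTOR and FoxO pathway in mouse gastrocnemius (GAS) muscle after knockdown of MYTHO. The genes were taken by name, and each matched 1 of the 22206 probe sets of the array table, so no choice between probe sets was needed. They are the growth factor *Igf1* and its receptor *Igf1r*, the kinases *Akt1*, *Akt2* and *Mtor*, the mTOR inhibitor *Tsc2*, the translational repressor *Eif4ebp1*, and the transcription factors *Foxo1*, *Foxo3* and *Foxo4*.

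Every mouse was a wild-type C57/Bl6j male, injected in muscle at about 10 weeks of age, and the labels give 14 weeks for the samples. One leg received an adeno-associated virus (AAV) in which the U6 promoter drives a short hairpin against the *Mytho* transcript (AAV sh-RNA MYTHO, 4 samples). The opposite leg received a scrambled hairpin under the same promoter (AAV sh-RNA scrmb, 4 samples), so both groups carried virus, hairpin and injection. The muscles were taken 3 weeks later and total RNA of a piece of GAS was measured on Clariom S Mouse arrays. The virus was of serotype 1, which favours skeletal muscle, while the U6 promoter itself is not restricted to a cell type. A bulk sample cannot tell fewer cells of a type from less RNA per cell. Letters A to D stand for the 4 animals.

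In skeletal muscle, insulin-like growth factor 1 binds its receptor and, through PI3-kinase, activates AKT. AKT restrains the TSC complex, which frees the mTOR complex 1 (mTORC1) to promote translation, partly by relieving the block that 4E-BP1 places on the cap-binding factor. AKT also keeps FoxO factors out of the nucleus, and nuclear FoxO factors promote ubiquitin ligase and autophagy genes during wasting. Most of this signaling runs through phosphorylation, which an array of transcripts does not measure.

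Gene positions are on mm10. Values are log2 signals, on which 1 unit is a 2-fold difference, and differences are MYTHO minus scrmb. The hairpin target checked the labels. D230025D16Rik, the gene listed for *Mytho*, stood at 11.35, 11.31, 10.78 and 11.05 in the scrmb legs of animals A to D and at 8.16, 8.20, 8.80 and 8.08 in their MYTHO legs. Every MYTHO leg was below every scrmb leg, and the transcript fell by 2.81 on the log2 scale (limma adjusted p = 0.00044). The 10 myofibre markers lay between 16.06 and 19.93 on all arrays, with *Acta1* and *Myh4* at the ceiling of 19.93, and T-cell markers lay between 5.28 and 5.71 as a list mean, below the array medians of 6.39 to 6.47. Of the 8 slow-fibre markers, all had a positive log2 fold change, with list means of 10.80 to 12.80 in scrmb and 10.87 to 13.87 in MYTHO muscle. All 6 endothelial markers were also higher, with list means of 9.77 to 10.29 in scrmb and 10.44 to 10.59 in MYTHO muscle. At an unadjusted p under 0.05 there were 7 of the 8 slow-fibre and 2 of the 6 endothelial markers, and no gene of either list passed an adjusted p under 0.05. On the first principal component, the scrmb array of animal D scored 3.31, nearest to the MYTHO arrays at 11.7 to 40.4, while the other scrmb arrays lay at -45.4 to -25.8.

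None of the 10 genes passed a limma adjusted p under 0.05, the threshold that 0.027% of all probe sets passed. The adjusted p ran from 0.362 to 0.99. Only *Akt1* had an unadjusted p under 0.05, against 12.4% of all probe sets, of which 4.81% were higher and 7.58% lower in MYTHO muscle. With 10 genes, 1 such gene is near this background. No gene reached a 2-fold change, whereas 1.51% of all probe sets had both a 2-fold change and an unadjusted p under 0.05. The groups overlapped for all 10 genes, while 6.46% of all probe sets did not overlap. Of the 10, 6 were higher and 4 lower in MYTHO muscle, with a median log2 fold change of 0.04 beside -0.01 over all probe sets.

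**Figure D1:**
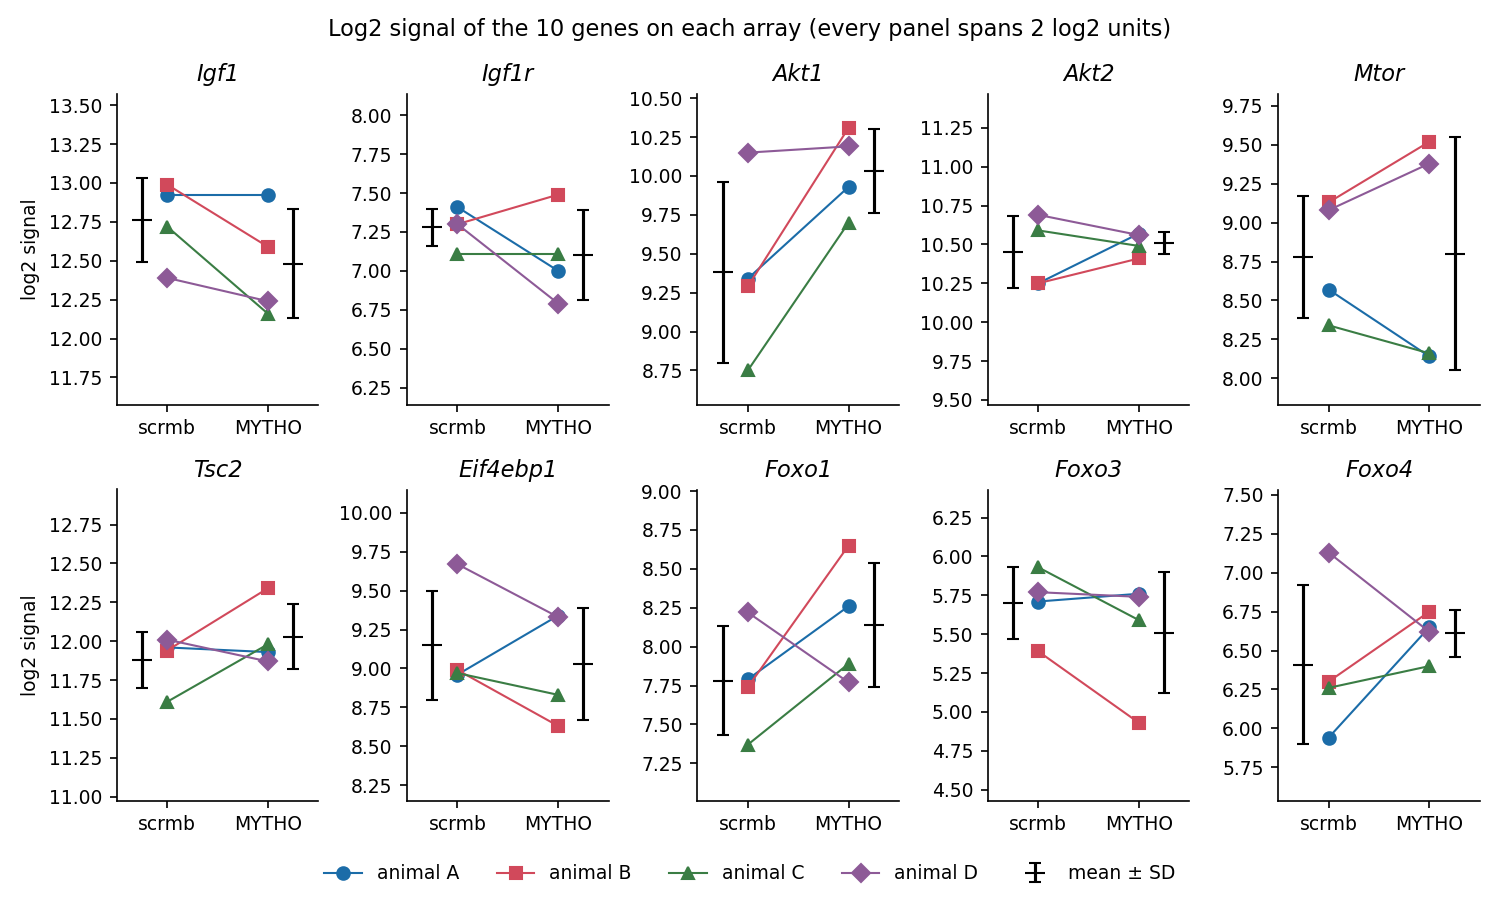
Log2 signal (y axis) of each gene in the scrmb and MYTHO leg (x axis), with 1 line per animal and black marks for the group mean ± SD (n = 4). Every panel spans 2 log2 units. The groups overlap in all 10 panels, and *Mtor* separates by animal rather than by leg.

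*Igf1* (chr10:87858265-87937047) codes for the growth factor that muscle makes for itself and also receives from the liver. For animals A to D it read 12.92, 12.99, 12.72 and 12.39 on the log2 scale in the scrmb legs. In the MYTHO legs it was 12.92, 12.59, 12.16 and 12.24. The MYTHO leg was lower in 3 animals and equal in animal A, and the ranges overlapped. MYTHO muscle differed from scrmb by -0.28 (standard error 0.22, 95% interval -0.75 to 0.20). The limma p was 0.229 unadjusted and 0.661 adjusted over all probe sets. Leaving out 1 array at a time gave -0.425 (without MYTHO A) to -0.172 (without MYTHO C).

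*Igf1r* (chr7:67952257-68233668) codes for the receptor tyrosine kinase that binds IGF1. The array signal, in log2, was 7.41, 7.30, 7.11 and 7.30 in the scrmb legs and 7.0, 7.49, 7.11 and 6.79 in the MYTHO legs of animals A to D. The lowest and the highest of the 8 signals were both in MYTHO legs. On average MYTHO muscle stood -0.18 from scrmb (95% interval -0.60 to 0.23), and the limma adjusted p was 0.755. Leaving out 1 array gave -0.313 without MYTHO B and -0.08 without MYTHO D.

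*Akt1* (chr12:112653821-112674884) codes for the AKT isoform found in most tissues. On the log2 scale it read 9.34, 9.29, 8.75 and 10.15 in the scrmb legs of animals A to D. In the MYTHO legs it was 9.93, 10.31, 9.70 and 10.19. The MYTHO leg was higher in 4 of 4 animals, and *Akt1* was the only one of the 10 genes with the same sign in every animal, as 19.7% of all probe sets had. The scrmb leg of animal D was above the MYTHO legs of animals A and C, so the groups overlapped. Scrmb muscle averaged 9.38 ± 0.58 and MYTHO muscle 10.03 ± 0.27 (SD, n = 4 each). This is a log2 fold change of 0.65 (standard error 0.27, 95% interval 0.05 to 1.25). The limma p was 0.0351 unadjusted and 0.362 adjusted. An exact two-sided permutation test with all 70 ways to relabel the arrays gave p = 0.0857, where 4 against 4 arrays allow 0.0286 at the lowest. With animal as a block, the unadjusted limma p was 0.0148 and the adjusted p 0.273. Swapping the legs within animals, a test added once the values were known, gave an exact permutation p of 0.125, the lowest that its 16 labellings allow.

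The side of the threshold on which *Akt1* fell depended on single arrays, while the log2 fold change stayed above 0 without any 1 of them. Without the scrmb array of animal D, the log2 fold change was 0.91 with an unadjusted limma p of 0.00233. Without the scrmb array of animal A, B or C, the unadjusted limma p was 0.0632, 0.0707 or 0.117, and without the MYTHO array of animal B or D it was 0.0904 or 0.0781. The log2 fold changes in these fits were 0.636, 0.619 and 0.439 without scrmb A, B and C, and 0.557 and 0.598 without MYTHO B and D. The difference between legs was 0.59, 1.02 and 0.95 in animals A to C and 0.04 in animal D. The slow-fibre list mean was also closest between the legs of animal D, at 12.80, 11.11, 11.08 and 10.80 in the scrmb legs and 13.87, 13.51, 13.82 and 10.87 in the MYTHO legs. By level, however, the scrmb leg of animal D had the lowest slow-fibre mean and the highest *Akt1* signal of the scrmb legs, at 10.15. The part of fibre type or of endothelial cells in the *Akt1* value was not tested.

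RefSeq lists 2 promoter windows for *Akt1* on GRCm38.p6, each from 250 bases before to 50 bases after a transcription start. One of them, at chr12:112674835-112675134 on the minus strand, holds the FoxO core motif TGTTTAC, and it is shown because *Akt1* had the lowest p of the 10 genes. The motif starts at position -161 from the start site and stands in capitals.

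Akt1 promoter: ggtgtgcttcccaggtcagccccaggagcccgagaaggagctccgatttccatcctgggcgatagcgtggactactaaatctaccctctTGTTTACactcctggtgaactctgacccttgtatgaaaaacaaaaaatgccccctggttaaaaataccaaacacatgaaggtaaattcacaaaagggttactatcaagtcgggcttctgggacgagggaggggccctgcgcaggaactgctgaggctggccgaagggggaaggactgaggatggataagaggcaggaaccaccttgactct

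The windows were searched on both strands for TGTTTAC and for the insulin response motif TGTTTTG, which share their first 5 letters. Among all 32851 promoter windows of this length, 3.65% hold the first and 6.28% the second. Of the 12 windows of the 8 genes with an entry, this was the only one with a match. That is near what these shares give for 12 windows, so the match does not set *Akt1* apart. The window of D230025D16Rik, the hairpin target, was searched as well and held neither motif. *Eif4ebp1* and *Foxo4* had no entry in the table. A match gives letters in a window, and binding there was not measured.

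*Akt2* (chr7:27591552-27640826) codes for the isoform that insulin-responsive tissues use for glucose uptake. The array signal, in log2, was 10.25, 10.25, 10.59 and 10.69 in the scrmb legs and 10.57, 10.41, 10.49 and 10.56 in the MYTHO legs of animals A to D. All MYTHO signals lay within the scrmb range. The difference between groups came to 0.06 (95% interval -0.32 to 0.44), the narrowest of the 10, and the limma adjusted p was 0.923. The difference between the responses of *Akt1* and *Akt2* was not tested.

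*Mtor* (chr4:148448582-148557685) codes for the kinase at the centre of both mTOR complexes. In the scrmb legs its log2 signal was 8.57, 9.13, 8.34 and 9.08 for animals A to D. The MYTHO legs gave 8.14, 9.52, 8.16 and 9.38. Both legs of animals A and C lay below both legs of animals B and D, whichever virus they had received. Animal accounted for 89.3% of the sum of squares of *Mtor* over the 8 arrays, the highest share of the 10 genes, beside a median of 40.6% over all probe sets. Group accounted for 0.0372%. MYTHO muscle differed from scrmb by 0.02 (standard error 0.34, 95% interval -0.72 to 0.76), and the limma adjusted p was 0.99. The sign depended on single arrays, with -0.22 without MYTHO B and 0.24 without MYTHO A.

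*Tsc2* (chr17:24595816-24632676) codes for tuberin, which in the TSC complex switches off the small GTPase RHEB and thereby mTORC1. On the log2 scale it read 11.96, 11.94, 11.61 and 12.01 in the scrmb legs and 11.93, 12.34, 11.98 and 11.87 in the MYTHO legs of animals A to D. The MYTHO leg was higher in animals B and C and lower in animals A and D. On average MYTHO muscle stood 0.15 from scrmb (95% interval -0.25 to 0.55), and the limma adjusted p was 0.793. The value was 0.0467 without the MYTHO array of animal B and 0.06 without the scrmb array of animal C.

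*Eif4ebp1* (chr8:27260327-27275656) codes for 4E-BP1, which binds the cap-binding protein eIF4E until mTORC1 phosphorylates it. The array signal, in log2, was 8.96, 8.99 and 8.97 in the scrmb legs of animals A to C and 9.67 in animal D. The MYTHO legs of animals A to D gave 9.34, 8.63, 8.83 and 9.33. The scrmb array of animal D held the highest signal of all 8. The difference between groups came to -0.12 (95% interval -0.63 to 0.40), and the limma adjusted p was 0.887. Without that array the log2 fold change was 0.06.

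None of the FoxO factors passed the test, and the interval of each held 0. *Foxo1* (chr3:52268337-52350109) gave 7.79, 7.74, 7.37 and 8.22 in the scrmb legs and 8.26, 8.65, 7.89 and 7.77 in the MYTHO legs of animals A to D. It was higher in the MYTHO leg in 3 of 4 animals, by 0.47, 0.91 and 0.52, and lower by 0.45 in animal D. On average MYTHO muscle stood 0.36 from scrmb (95% interval -0.17 to 0.89), and the limma adjusted p was 0.586. The value was 0.193 without the MYTHO array of animal B and 0.226 without the scrmb array of animal C.

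*Foxo4* (chrX:101254261-101260873) gave 5.94, 6.30, 6.26 and 7.13 in the scrmb legs and 6.65, 6.75, 6.40 and 6.62 in the MYTHO legs of animals A to D. As for *Foxo1*, the MYTHO leg was higher in animals A to C and lower in animal D. The highest *Foxo4* signal was in the scrmb leg of animal D. The difference between groups came to 0.20 (95% interval -0.33 to 0.73), and the limma adjusted p was 0.795. Without the scrmb array of animal D, *Foxo4* stood at 0.44 with an unadjusted limma p of 0.0437 and an adjusted p of 0.329, and without the scrmb array of animal A at 0.0417 with an unadjusted p of 0.866. Without both arrays of animal D, a setting added once the values were known, *Foxo1* stood at 0.63 with an unadjusted limma p of 0.0316 and an adjusted p of 0.315.

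*Foxo3* (chr10:42181845-42276695), which promotes the main atrophy ligase genes, gave 5.71, 5.39, 5.93 and 5.77 in the scrmb legs and 5.76, 4.93, 5.59 and 5.74 in the MYTHO legs of animals A to D. These signals were below the median of their array on all 8 arrays, so this probe set was dim, while *Foxo4* lay in the middle of the signal range and below the median on 3 arrays. The lowest signal of *Foxo3* was in the MYTHO leg of animal B. On average MYTHO muscle stood -0.20 from scrmb (95% interval -0.68 to 0.29), and the limma adjusted p was 0.778. Without that array of animal B the log2 fold change was -0.00333, and without the scrmb array of animal B it was -0.298.

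**Figure D2:**
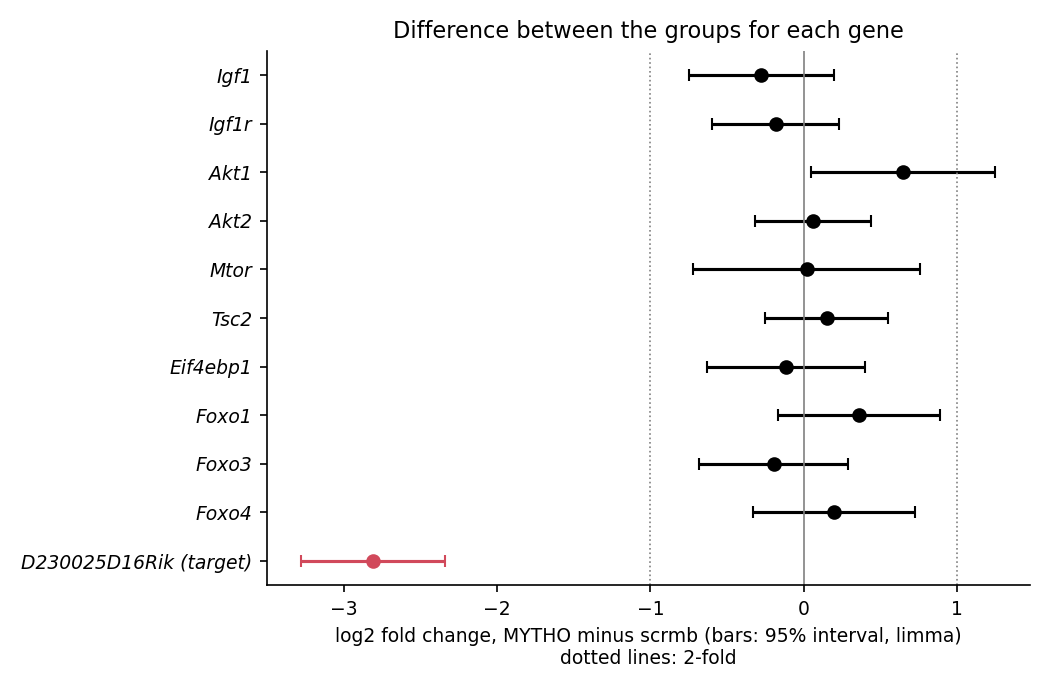
Log2 fold change, MYTHO minus scrmb (x axis), with its 95% interval from limma for the 10 genes (black) and the hairpin target (red). The dotted lines mark a 2-fold change. The *Akt1* interval, 0.05 to 1.25, is the only one of the 10 that does not hold 0, and the target lies at -2.81.

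These intervals bound what the fit without animal as a block can show from 4 arrays per group. In that fit, differences between animals count as spread, and animal took 89.3% of the sum of squares for *Mtor*. Intervals with animal as a block are not given here. For 9 of the 10 genes the 95% interval lay within a 2-fold change in either direction, and for *Akt1* it reached a fold of 2.37. The widest of the 9 was that of *Mtor*, from a fold of 0.609 to 1.69. Smaller changes were not resolved by this fit, and a p above the threshold does not show that a transcript was equal in both groups.

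**Figure D3:**
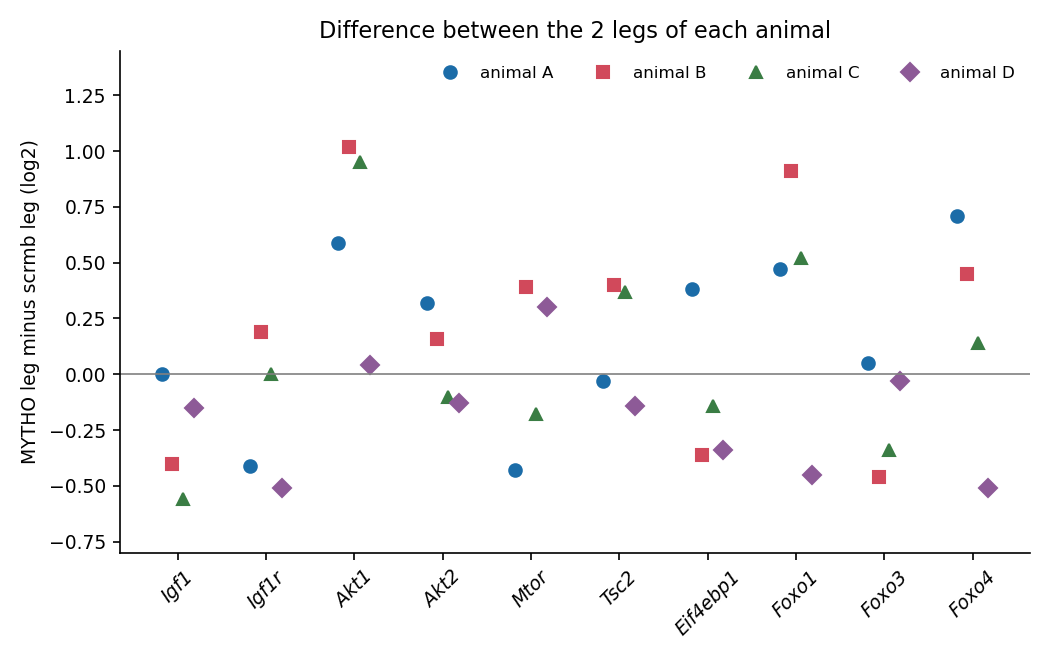
MYTHO leg minus scrmb leg of the same animal, in log2 (y axis), for each gene (x axis), with 1 symbol per animal. *Akt1* is above 0 in all 4 animals, from 0.04 to 1.02, and the other genes have animals at or on both sides of 0.

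In animal D the scrmb signal was the highest of the scrmb group for 6 of the 10 genes, as for 24.7% of all probe sets. Its legs differed by -0.45 for *Foxo1* and -0.51 for *Foxo4*, against 0.14 to 0.91 in the other animals. Animal took a median of 51.8% of the sum of squares of the 10 genes, beside 40.6% over all probe sets, and group took 13.6% beside 12.6%. The shares describe these 8 arrays and were not tested.

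Among the genes whose signal was most like that of *Akt1* over the 8 arrays were *Wipi1* and *Wnk2*, with Pearson r of 0.984 and 0.977. The search covered 10437 probe sets that name 1 gene, lie in the upper 50% by signal and vary over the arrays. *Wipi1* codes for a phosphoinositide-binding autophagy protein. Its mean was 7.97 in scrmb and 8.44 in MYTHO muscle, and its log2 fold change of 0.47 had a limma adjusted p of 0.388. The arrays share animals and groups, so these values only describe likeness.

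Lists of the wider pathway held 213 genes in all, the 10 genes included, and every one was measured. None of the 213 passed a limma adjusted p under 0.05. By the unadjusted p, 25 were under 0.05, 20 of them higher and 5 lower, which is 11.7% of the genes beside 12.4% of all probe sets. The higher genes were 9.39% of the 213 beside 4.81% of all probe sets, and the lower genes 2.35% beside 7.58%. The lists were chosen with earlier results of these data known, and the probe sets beside them were not matched for signal. These shares are therefore a description, and a shift of the pathway was not tested. The median log2 fold change was 0.05, beside -0.01 over all probe sets. The groups did not overlap for 15 of the 213, beside 6.46% of all probe sets. Of the genes named below, these were *Ins1*, *Inppl1*, *Tbc1d7*, *Lamtor2*, *Rps6kb2*, *Kat2b*, *Map1lc3a*, *Cat* and *Psma1*. The count of 25 was 12 without the scrmb array of animal C and 13 without the MYTHO array of animal B.

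**Figure D4:**
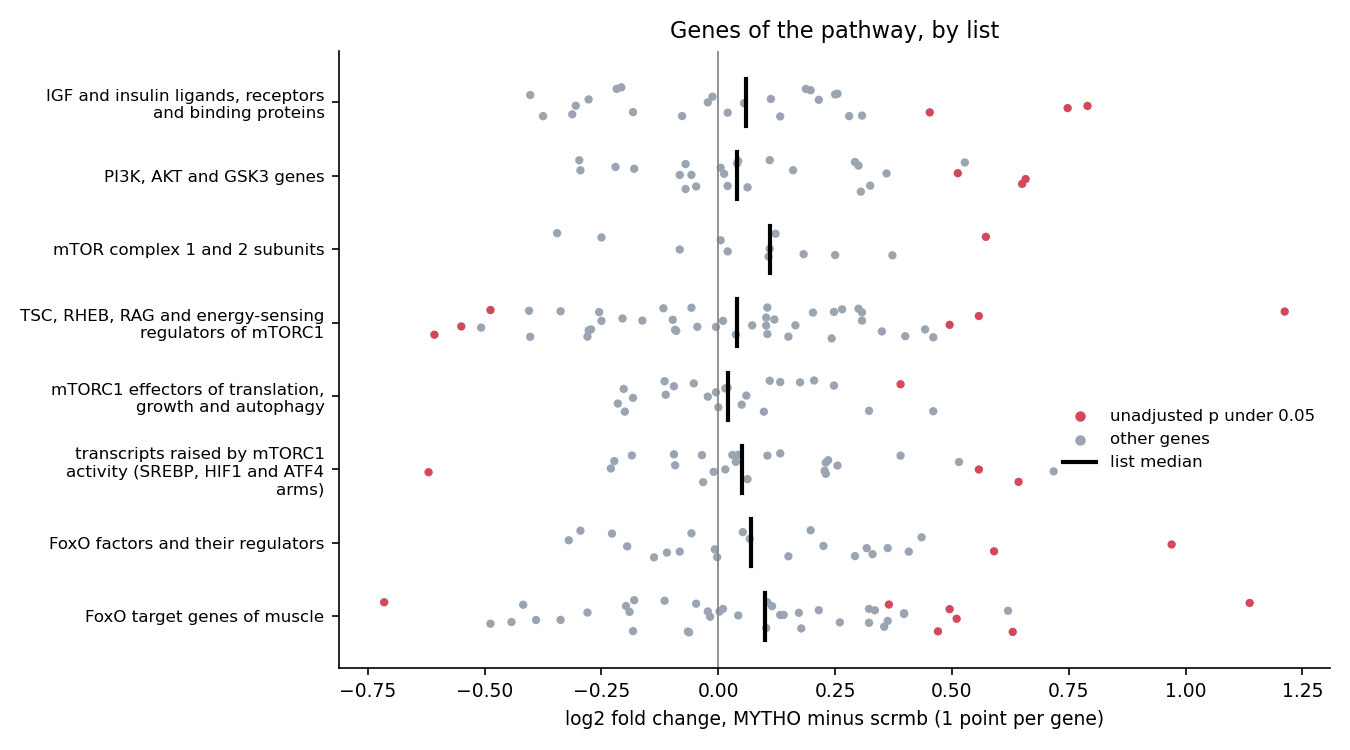
Log2 fold change, MYTHO minus scrmb (x axis), with 1 point per gene and 1 row per list. Red points have an unadjusted limma p under 0.05 and black bars are list medians, which run from 0.02 to 0.11. A gene in 2 lists appears in both rows.

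Among 25 IGF and insulin ligands, receptors and binding proteins, 3 had an unadjusted p under 0.05, all higher, or 12% beside 12.4% of all probe sets. *Grb14*, an adaptor that inhibits the insulin receptor, differed by 0.79 in log2 (limma adjusted p = 0.367). *Igf2*, the second IGF ligand, stood at 0.75 (limma adjusted p = 0.251). *Ins1*, an insulin gene of the pancreas, stood at 0.45 (limma adjusted p = 0.320), on a dim probe set with means of 4.58 and 5.03.

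Among 26 PI3K, AKT and GSK3 genes, 3 had an unadjusted p under 0.05, or 11.5% beside 12.4% of all probe sets. These were *Akt1*, *Inppl1* and *Phlpp2*. *Inppl1* codes for SHIP2, a phosphatase that removes the lipid signal upstream of AKT. It differed by 0.66 in log2 (limma adjusted p = 0.236), and its groups did not overlap. *Phlpp2*, which codes for a phosphatase of AKT itself, stood at 0.51 (limma adjusted p = 0.336). Its probe set was dim, with means of 5.55 in scrmb and 6.06 in MYTHO muscle. Of 12 subunits of the mTOR complexes, 1 had an unadjusted p under 0.05, or 8.33% beside the same 12.4%. This was *Deptor*, an inhibitory subunit, at 0.57 (limma adjusted p = 0.366).

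Among 45 regulators of mTORC1, 3 were higher and 3 lower at an unadjusted p under 0.05, or 13.3% beside 12.4% of all probe sets. *Tbc1d7*, the third subunit of the TSC complex, had the lowest p of all 213 genes. On the log2 scale it read 7.17, 7.22, 6.87 and 7.26 in the scrmb legs and 8.42, 8.70, 8.42 and 7.83 in the MYTHO legs of animals A to D. The groups did not overlap. The log2 fold change was 1.21 (standard error 0.21), the limma p was 9.32e-05 unadjusted and 0.0609 adjusted, and the MYTHO leg was higher in 4 of 4 animals. Over 19 alternatives its limma adjusted p ran from 0.0231 to 0.248 and was under 0.05 in 5. With animal as a block it was 0.158.

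The other named regulators had smaller differences. *Lamtor2*, a subunit of the lysosomal scaffold on which mTORC1 is activated, differed by -0.61 in log2 (limma adjusted p = 0.168), and its groups did not overlap. *Prkab1*, a subunit of AMPK, stood at 0.56 (limma adjusted p = 0.390). *Stk11*, which codes for the kinase upstream of AMPK, stood at -0.55 (limma adjusted p = 0.333).

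Downstream of mTORC1, 1 of 24 effectors had an unadjusted p under 0.05, or 4.17% beside 12.4% of all probe sets. *Rps6kb2*, an S6 kinase gene, differed by 0.39 in log2 (limma adjusted p = 0.356). Among 26 transcripts that mTORC1 activity is known to raise, 2 were higher and 1 lower, or 11.5% beside the same 12.4%. *Shmt2*, of mitochondrial one-carbon metabolism, stood at 0.64 (limma adjusted p = 0.349). *Pgd*, of the pentose phosphate pathway, stood at 0.56 (limma adjusted p = 0.302), and *Phgdh*, the first enzyme of serine synthesis, at -0.62 (limma adjusted p = 0.329). The *Phgdh* probe set was dim, with means of 6.01 in scrmb and 5.39 in MYTHO muscle.

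Among 23 FoxO factors and regulators, 2 were higher at an unadjusted p under 0.05, or 8.70% beside 12.4% of all probe sets. *Stk4*, a Hippo pathway kinase that phosphorylates FoxO factors, differed by 0.97 in log2 (limma adjusted p = 0.235). Its probe set was dim, with means of 5.09 in scrmb and 6.07 in MYTHO muscle. The groups overlapped, and in animal D the MYTHO leg was below the scrmb leg, at 5.41 against 5.73. *Kat2b*, an acetyltransferase, stood at 0.59 (limma adjusted p = 0.294). Of the 43 muscle targets of FoxO factors, 6 were higher and 1 lower by this measure, or 16.3% beside 12.4% of all probe sets, with a median log2 fold change of 0.10.

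Among these targets, *Map1lc3a*, an LC3 gene of autophagosomes, differed by 1.14 in log2 (limma adjusted p = 0.164). The array signal, in log2, was 10.42, 10.16, 9.74 and 11.17 in the scrmb legs and 11.36, 12.10, 11.18 and 11.40 in the MYTHO legs of animals A to D. The groups did not overlap, although the scrmb leg of animal D lay 0.01 below the lowest MYTHO leg. *Fbxo31*, an F-box gene, stood at 0.63 (limma adjusted p = 0.319), and the catalase gene *Cat* at 0.51 (limma adjusted p = 0.307). *Psma1*, a proteasome subunit, stood at -0.72 (limma adjusted p = 0.155). The atrophy ligases *Fbxo32* and *Trim63* had log2 fold changes of -0.19 and -0.49 and unadjusted limma p of 0.455 and 0.105, values given because these are the usual readouts of FoxO activity in muscle.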

How the data were processed

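Gene expression was measured in GAS muscle on 8 arrays, 4 per group. The deposited values are log2 signals per probe set. The authors made them with default settings of the Transcriptome Analysis Console 4.0.1 (SST-RMA, gene level, annotation release 36, mm10). This includes background correction and quantile normalization, so changes shared by all genes are removed, and the arrays give no depth, only 4 values per group. The deposited fold changes, p-values and group averages were not used. Signals run from 2.38 to a ceiling of 19.93, reached on all arrays by 18 probe sets and by none of the 10 genes.

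Groups were compared with limma 3.58.1 in R 4.3.3 (lmFit and eBayes, two-sided, no block), and p-values were adjusted by Benjamini-Hochberg over all probe sets. The fit was tested on simulated data. The labels' replicate numbers could not be tied to columns. The column names carry an animal number found once in each group, so the legs of an animal were paired in an alternative. Same-animal deviations from the group means correlated at 0.00266, -0.00145, 0.135 and 0.0871 across probe sets.

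The 10 genes and the lists were chosen with earlier results of these data known. All 10 genes and the target were named, with up to 4 genes per list having the largest log2 fold change at an unadjusted p under 0.05, and the 3 genes most like the one with the largest difference, of which 1 is not reported here. *Castor1* and *Castor2* were matched by RefSeq synonyms. Gene positions and promoters are from RefSeq on GRCm38.p6, the assembly of mm10. Alternatives were blocks on animal, normalization, filters on signal, variance models and leaving out arrays.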

Additional observations from a re-analysis of the deposited data

Results flagged for a closer look

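For the 10 genes and the hairpin target, 22 groups of 4 arrays were searched for an array far from the other 3, which chance alone finds in about 1 of 20 groups. In scrmb muscle, animal D had an *Eif4ebp1* log2 signal of 9.67 against 8.96 to 8.99 in the others, a gap of 0.958 of the range of the group. In MYTHO muscle, animal C had a D230025D16Rik log2 signal of 8.80 against 8.08 to 8.20, a gap of 0.833 of the range. The cause of neither was tested.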

How the results depend on the processing

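Of 19 alternatives, none gave a limma adjusted p under 0.05 for any of the 10 genes. The lowest was 0.0966. With animal as a replicate block, the count at an unadjusted p under 0.05 stayed at 1 of the 10, and in the lists it was 26 in place of 25. No call at an adjusted p under 0.05 changed with it. Without single arrays the first count ran from 0 to 2 and the second from 12 to 30, and without both arrays of animal D the first was 2. In place of 0 list genes past an adjusted p, 1 passed with animal as a random replicate block, after median centring, with trend and robust, and without saturated probe sets, each time *Tbc1d7*. Without single arrays this ran from 0 to 2, with *Tbc1d7* and *Map1lc3a* past it without scrmb D, both at 0.0443. The target stayed called in all 19, at -2.98 to -2.74.

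Of 189 log2 fold changes of the 10 genes under alternatives, 179 kept their sign. *Mtor* stood at -0.0339 with array weights and -0.0733 without both arrays of animal D, and ran from -0.22 to 0.24 without single arrays. *Akt2* ran from -0.0025 to 0.144 and *Eif4ebp1* from -0.217 to 0.0592. The cause was not tested. *Foxo3* was below the upper 50% by signal and could not be fitted there. Each gene has 1 probe set, so the choice of probe set was not run. The dim signal limits what can be seen for *Foxo3*.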
